A study of Xenopus laevis with 16 samples.

Results

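Animal caps of Xenopus laevis that carried foxD5 mRNA were set against caps of uninjected sibling embryos, both cultured without Noggin. The comparison was chosen by group label and holds 8 of the 16 arrays of the series, 4 of foxD5-injected caps and 4 of uninjected caps, with 15491 of the 15611 probe sets on the array. The injected embryos had received 100 pg of foxD5 mRNA in each blastomere of the 2-cell embryo. Caps were cut at stage 8 to 9. The injected ones were kept until stages that the labels place between 11.5 and 13.0, from later gastrulation to the start of neurulation. For the uninjected caps of this comparison the labels give no stage. Each RNA sample pooled 45 to 171 caps and was read on its own single-colour Affymetrix array. The other 8 arrays come from foxD5-injected and uninjected caps in 200 ng/ml Noggin, a secreted BMP antagonist, and entered the fit to steady the estimate of the spread. No cap received a control mRNA, so foxD5 and the injection itself cannot be told apart. A pool of caps also gives no view of single cells, and fewer cells of a type and less RNA per cell cannot be told apart.

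The animal cap is the roof of the blastula, an ectoderm that has not yet chosen between skin and nervous system. BMP ligands made by its own cells switch on a set of transcription factors and then the keratins of epidermis, whereas cells shielded from BMP turn to neural fate. FGF signals act beside this choice and are also needed for mesoderm and for posterior tissue. FoxD5, a DNA-binding protein of the forkhead family, is made in the early neural ectoderm and is known in this frog for holding that tissue in an immature neural state, and the genes related to it are now listed under the symbol foxd4l1. The suffixes .L and .S mark the gene copies on the long and short subgenomes of this tetraploid species, and each copy was treated as a gene of its own.

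The arrays carried signal of ectoderm. The keratin gene krt70.S lay between 4112 and 6876, sox11.S between 1500 and 2991 and sox3.S between 670 and 1196 units of deposited signal on the 8 arrays. Of the other ectoderm markers, grhl3.L lay between 264 and 898, tfap2a.L between 231 and 1003 and the neural sox2.L between 63.8 and 150. Some others were dim. tp63.L of epidermis was at 17.2 or below and the neural sox3.L at 20.5 or below, and cdh1.S of epidermis lay between 8.24 and 103. The defining markers of other tissues were mostly low, with at most 12.0 for myod1.L of muscle, 18.0 for sox17a.S of endoderm, 30.1 for hba1.S of blood and 13.8 for tekt2.L of ciliated cells, although myod1.S reached 54.3 and sox17b.1.S of endoderm 116. Not all markers were low: a2m.S of the endoderm list lay at 105 to 175 in injected caps and 99.9 to 181 in controls, and ca12.L of the ciliated cell and ionocyte list at 293 to 463 in injected caps and 262 to 540 in controls. The sample titles name the inner ear, whereas the sample descriptions speak of animal caps. The inner ear markers looked for (otog, otoa, tecta, pou4f3, atoh1 and slc26a5) were not found among genes with 1 symbol. The otogelin-like gene otogl2.L was bright in its brightest probe set, as given below. The array's probe sets for the injected gene's family did not separate the groups. The signal of foxd4l1.1.S was 38.1, 95.7, 44.8 and 134 in injected caps 1 to 4, against 35.0, 70.6, 57.0 and 20.9 in their siblings (log2 change 0.61 ± 0.40 SE, limma adjusted p = 0.648), and foxd4l1.2.L was at 10.1 or below on every array. Whether these probe sets detect the injected mRNA was not tested, so they do not check the labels.

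In the fit, log2(signal + 16) was compared within sibling pairs with limma over all probe sets, and a probe set passed at a Benjamini-Hochberg adjusted p under 0.05. The constant of 16 shrinks the changes of dim genes, and 26.5% of the probe sets had a mean signal below it. In all, 37 probe sets passed, 0.239% of those tested, with 18 higher (0.116%) and 19 lower (0.123%) in injected caps. The smallest adjusted p was 0.0038, and log2 changes had sizes of 0.87 to 2.05. Of the 37, 26 carry 1 gene symbol and stand for 25 genes, 13 higher and 12 lower. A further 2 carry several symbols and 9 carry none, and these are counted but not named. At an unadjusted limma p under 0.05 there were 1581. Of the 7531 genes with 1 symbol, 430 were higher and 359 lower at that level. These are the background for such counts in the lists below. The labels do not say that the numbered samples come from separate clutches, so these p values measure the spread between the samples at hand. The calls lean on the shared estimate of the spread and on the pairing: with the 8 arrays alone 0 probe sets passed (1109 at an unadjusted p under 0.05), and without the pairing 1 passed (767 at an unadjusted p under 0.05).

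All 37 moved in one direction in 4 of 4 pairs, which held for 8.2% of all probe sets upward and 7.44% downward. The injected and uninjected arrays did not overlap for 32 of the 37, against 1.81% of all probe sets with every injected array above and 1.39% with every injected array below. The 37 were chosen by a paired test on these same arrays, which favours even changes. Both counts are thus part of how they were chosen and no separate evidence. A change over 2-fold in 1 direction in all 4 pairs was found for 13 probe sets (0.0839%), of which 12 passed. The pairs were not alike in size. The median size of the change over the 37 was 1.67, 1.45, 1.07 and 1.49 in pairs 1 to 4, and for 20 of them the smallest change was that of pair 3. Pair 1 held the largest change of 12 of the 37, pair 2 of 14, pair 4 of 9 and pair 3 of 2.

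**Figure D1:**
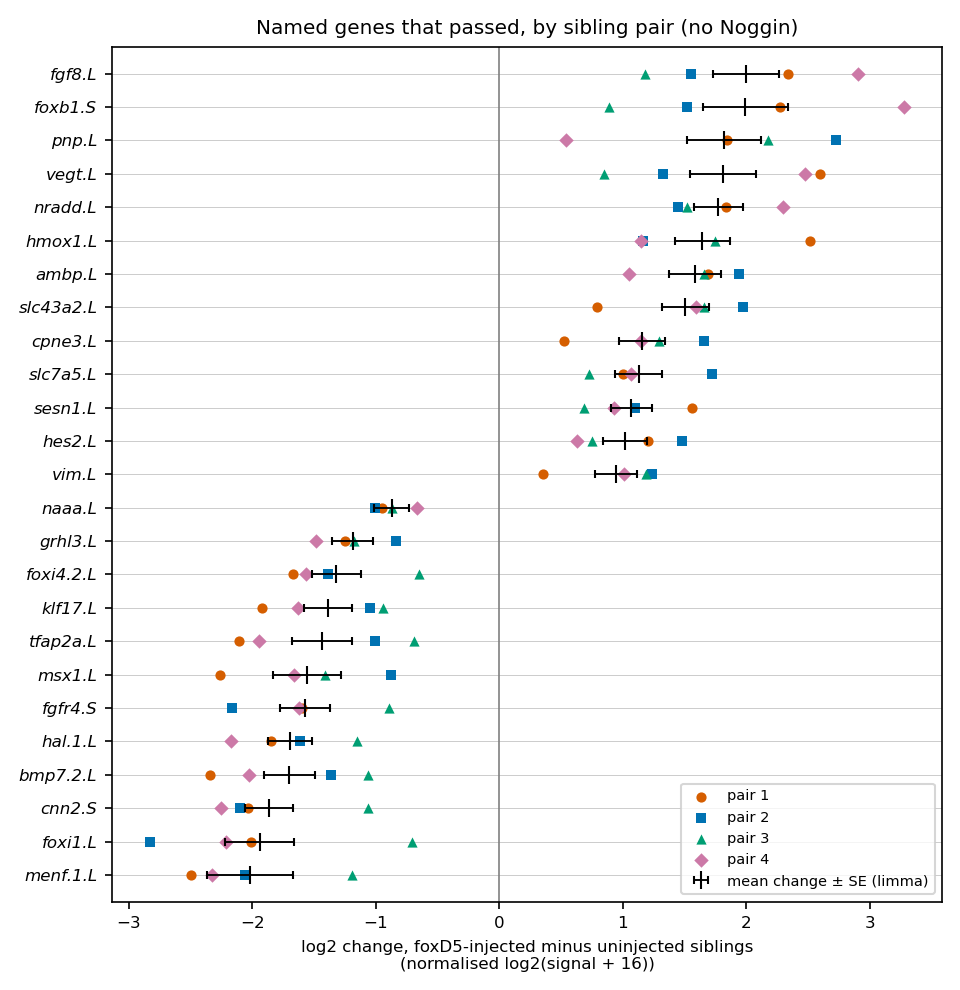
Log2 change of each of the 25 named genes that passed, foxD5-injected minus uninjected siblings, in each of 4 sibling pairs (coloured points) with the mean and SE of the limma fit (black). No point crosses 0, and the triangles of pair 3 are often nearest to it, as for foxi1.L, tfap2a.L and vegt.L.

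Among the transcription factors of non-neural ectoderm, 5 of 21 measured genes fell, 0 rose and 16 did not pass, where 0.159% of all 7531 genes fell and 0.159% rose. The lists here and below were chosen with earlier results of these data known. A gap between a list and all genes is thus no independent evidence. The 5 that fell were grhl3.L, klf17.L, foxi1.L, foxi4.2.L and tfap2a.L. Grhl3 is a grainyhead factor of the outer barrier layer, and its signal was 293, 278, 264 and 298 in injected caps against 691, 474, 631 and 898 in siblings (log2 change -1.19 ± 0.17, limma adjusted p = 0.0132). The injected caps lay within a narrow band and well below each control. Klf17, a Krüppel-like factor of ventral and non-neural ectoderm, was read by a pair of probe sets that both passed, with log2 changes of -1.38 ± 0.19 and -1.38 ± 0.21. In the first, injected caps gave 200, 184, 218 and 225 against 774, 362, 449 and 774. The identifiers of the pair share a stem, so they may not be independent readings. With a random replicate block neither passed (limma adjusted p = 0.119 and 0.0883).

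The forkhead genes of the list are foxi1 and foxi4.2, and foxi1 marks the epidermal progenitors that give rise to ionocytes. foxi1.L gave 16.3, 7.1, 28.8 and 15.1 in injected caps against 123, 136, 56.2 and 139 (-1.94 ± 0.28, adjusted p = 0.0164), the widest gap in pair 2 and the narrowest in pair 3. foxi4.2.L gave 301, 331, 334 and 331 against 953, 842, 541 and 1049 (-1.32 ± 0.20, adjusted p = 0.0178), while a second, dim probe set of it did not pass (0.26 ± 0.18). Its homeolog foxi4.2.S gave 251, 375, 423 and 301 against 821, 594, 445 and 817 and did not pass (-0.94 ± 0.25, adjusted p = 0.223), with a change of -0.03 in pair 3. tfap2a.L, an AP-2 factor that acts in epidermis and again at the neural plate border, gave 231, 316, 331 and 233 against 982, 608, 552 and 1003 (-1.44 ± 0.24, adjusted p = 0.0368). Its controls 1 and 4 were the highest, and pairs 1 and 4 showed changes of -2.11 and -1.94, against -1.01 and -0.69 in pairs 2 and 3.

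The other 16 members of the list did not pass. The GATA factor gata2.L had 68.7, 96.9, 57.3 and 43.4 against 324, 176, 120 and 329 (-1.53 ± 0.28, adjusted p = 0.0571) and was lower in 4 of 4 pairs. grhl1.L, named after its values were seen, had 508, 459, 726 and 678 against 1727, 623, 679 and 1582, a difference in pairs 1 and 4 and little in pairs 2 and 3. Of the 5 ventx and 2 hes4 genes in the list, which act early in ventral and ectodermal patterning, none passed, and ventx2.1.S, named after its values were seen, had 434, 491, 650 and 744 against 744, 427, 494 and 596. Over the 21 genes the median log2 change was -0.83 (0.0094 over all 7531 genes). In all 4 pairs 8 were lower and 0 higher (38.1% lower, against 7.53% of all genes). For 7 every injected array lay below every control, as for 97 of all 7531 genes. By pair the median was -1.67, -0.50, -0.01 and -1.22. Without pair 1 it was -0.49, and 1 of the 5 passed, grhl3.L. Without pairs 1 and 4, a setting added after the data were seen, it was -0.08 and 0 passed (12 of the 21 had been lower at an unadjusted p under 0.05 with all pairs).

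**Figure D2:**
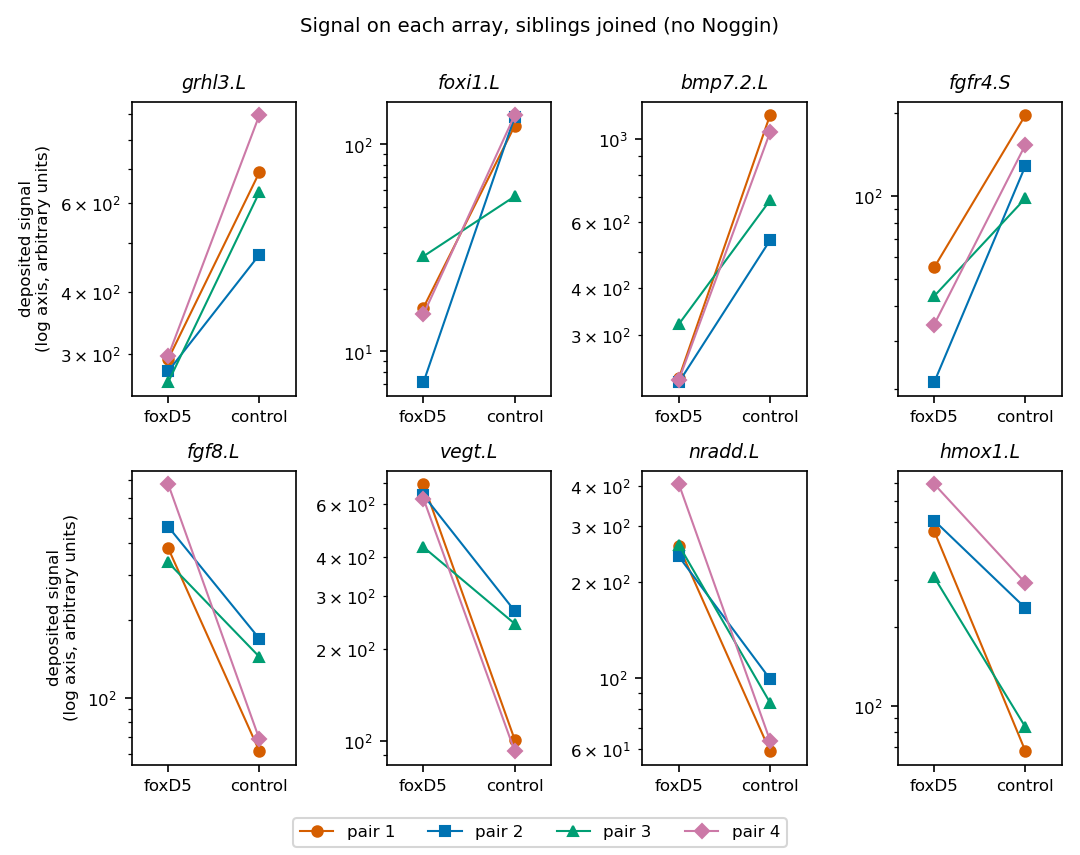
Deposited signal (log axis) of 8 genes on the foxD5-injected (left) and uninjected (right) array of each sibling pair, joined by a line. The upper row shows genes that fell and the lower row genes that rose, and in every panel the injected points lie on 1 side of the control points.

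In the BMP pathway 1 of 23 ligand and antagonist genes fell and 0 rose. This was bmp7.2.L, which encodes a BMP7-type ligand of the ectoderm, with 231, 225, 321 and 228 in injected caps against 1157, 538, 687 and 1042 (-1.70 ± 0.21, adjusted p = 0.00789). Again the injected caps were close to each other, and controls 1 and 4 were the highest. The ligand gene bmp4.S, named after its values were seen, was 44.2, 142, 71.4 and 79.8 against 347, 143, 72.4 and 323, so it differed between siblings in pairs 1 and 4 (-2.60 and -1.70) and hardly in pairs 2 and 3 (0.06 and 0.04). The copies of szl, which encodes the feedback inhibitor Sizzled, had changes of -1.72, -1.23, -0.38 and -2.13 for szl.L and -1.75, -1.34, 0.18 and -1.63 for szl.S, and neither passed. The antagonist genes nog.L and chrd.1.S, which encode Noggin and Chordin, stayed at 22.4 and 40.6 or below on all 8 arrays, with log2 changes of 0.29 ± 0.19 and 0.37 ± 0.24 that did not pass (brightest probe set of each, chosen after their values were seen). The exact size of the changes of such dim genes is limited by the constant of 16.

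None of 16 BMP receptor and Smad genes passed in limma, with 0 higher and 2 lower at an unadjusted p under 0.05. The largest shifts by p were in smad7.L, an inhibitory Smad, at 1039, 1029, 784 and 598 against 2101, 1172, 1220 and 1431 (-0.78 ± 0.20, adjusted p = 0.21), and in the BMP-responsive smad9.S (-0.98 ± 0.30, adjusted p = 0.271). Among 24 direct and early BMP targets, 1 fell and 0 rose. It was the homeobox gene msx1.L, with 11.8, 32.6, 14.9 and 15.4 against 128, 70.5, 64.4 and 88.8 (-1.55 ± 0.27, adjusted p = 0.0453). This call was fragile, like some others listed at the end. It was lost with values as deposited (limma adjusted p = 0.0614), with median centring (0.0546) and with a constant of 64 (0.114). Leaving out any pair also lost it. Of the 24, 11 were lower in all 4 pairs and 0 higher (45.8% lower, against 7.53% of all genes), and the median was -0.35. This list too was chosen with earlier results known, so that gap is no independent evidence. The BMP targets partly overlap the list of ectodermal factors, and by pair their median was -0.87, -0.07, -0.14 and -0.40.

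In the FGF pathway a ligand rose and a receptor fell. Of 24 genes, fgf8.L rose, fgfr4.S fell and 22 did not pass. Fgf8 is a secreted ligand of posterior neural tissue and mesoderm, with 382, 463, 336 and 678 in injected caps against 61.7, 169, 144 and 68.8 (1.99 ± 0.27, adjusted p = 0.0117). Its lowest controls were in pairs 1 and 4, which held the larger changes. The receptor gene fgfr4.S gave 55.2, 21.2, 43.5 and 34.3 against 197, 129, 98.3 and 154 (-1.57 ± 0.20, adjusted p = 0.00965), and its homeolog fgfr4.L gave 168, 138, 80.7 and 80.2 against 294, 208, 199 and 324 (-1.04 ± 0.19, adjusted p = 0.0582). Both copies were lower in all 4 pairs. The other 2 probe sets of fgf8.L were dim and did not pass (0.47 ± 0.18 and 0.33 ± 0.19). Feedback genes did not pass: the phosphatase gene dusp1.S was at 94.3, 85.2, 96.5 and 82.1 against 36.3, 64.3, 64.7 and 24.5 (0.84 ± 0.20, adjusted p = 0.144), and spry2.S and spry2.L, named after their values were seen, had 0.56 ± 0.19 and 0.42 ± 0.19. In all 4 pairs 7 of 24 were higher and 4 lower (29.2% and 16.7%, against 9.16% and 7.53% of all genes), and the median was 0.12.

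The mesoderm list held 41 genes, of which 3 passed and all 3 rose, where 0.159% of all genes rose. Besides fgf8.L these were vegt.L and foxb1.S. Without pair 1 none of the 3 passed, and likewise without pair 4. VegT is a T-box factor, maternal in the vegetal egg and zygotic in the marginal zone, and vegt.L gave 695, 638, 432 and 622 against 101, 267, 243 and 92.8 (1.81 ± 0.27, adjusted p = 0.0178). Its homeolog vegt.S was at 19.6 or below on every array, with 0.37 ± 0.21. Foxb1 is a forkhead gene of posterior neural and paraxial tissue, and foxb1.S gave 78.1, 86.4, 51.2 and 159 against 3.73, 26.4, 18.0 and 1.78 (1.99 ± 0.34, adjusted p = 0.042). Most other mesoderm genes were dim on both sides. The notochord and mesoderm gene tbxt.S, named with the muscle gene after their values were seen, had 4.16, 56.0, 14.0 and 36.1 against 2.69, 18.1, 5.68 and 5.88 (0.76 ± 0.19, adjusted p = 0.181), the muscle gene myod1.S had 37.5, 51.8, 29.3 and 29.1 against 27.6, 54.3, 19.0 and 16.8 (0.30 ± 0.23, adjusted p = 0.715), and foxf1.L of lateral mesoderm had a change below 0 (-0.78 ± 0.17, adjusted p = 0.111).

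Over the 41 genes the median was 0.20, with 11 higher and 2 lower in all 4 pairs (26.8% and 4.88%, against 9.16% and 7.53% of all genes). The summed signal of this list was 1240 to 2216 in injected caps and 408 to 1260 in controls, and fgf8.L and vegt.L alone made up a large part of it. The 17 muscle genes summed to 330 to 639 in injected caps and 255 to 638 in controls, and the 23 endoderm genes to 287 to 513 in injected caps and 361 to 695 in controls. Neither of these sets had a member that passed. The part of mesodermal cells in the rise of these 3 genes was not tested. Among 27 organizer and midline genes 0 passed, and foxa4.L of the notochord and floor plate, with 13.6, 15.5, 10.9 and 17.3 against 1.27, 5.31, 2.43 and 0.696, came nearest (0.76 ± 0.15, adjusted p = 0.0898). None of 24 Nodal and activin genes (1 higher and 3 lower at an unadjusted p under 0.05) and none of 63 Wnt genes (9 higher and 2 lower) passed either, although prickle1.L, a planar polarity gene, was higher in all 4 pairs (233, 442, 227 and 404 against 93.6, 263, 150 and 123, 1.01 ± 0.23, adjusted p = 0.13).

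The lists of neural fate and of later neural patterning held no gene that passed. However, foxb1.S, counted with mesoderm above, is also a gene of posterior neural tissue. Of 32 factors of neural fate, 27 neuronal differentiation genes, 23 anterior and placode genes and 48 hindbrain and posterior genes, 0 passed in each list, and the list medians lay between -0.06 and 0.07. Among the 32 factors of neural fate, 0 were higher and 3 lower at an unadjusted limma p under 0.05. In all 4 pairs 1 was higher and 5 were lower (3.12% and 15.6%, against 9.16% and 7.53% of all genes). Among genes named after their values were seen, the neural gene sox2.L had 89.1, 113, 86.6 and 150 against 63.8, 90.2, 87.1 and 81.7 (0.41 ± 0.26, adjusted p = 0.636), and sox11.S had 2409, 2342, 2991 and 2705 against 1500, 2656, 2142 and 2145 (0.27 ± 0.19, adjusted p = 0.671). The Iroquois gene irx1.L lay in the other direction, with 75.8, 26.1, 57.7 and 40.2 against 100, 67.5, 124 and 106 (-0.81 ± 0.16, adjusted p = 0.0701). Of the neuronal genes elavl3.L was dim (18.0 to 45.1 in injected caps against 7.40 to 22.3), and the tubulin gene tubb2b.S was brighter, at 210, 163, 137 and 187 against 156, 123, 95.3 and 137 (0.44 ± 0.23, adjusted p = 0.558). In the list of neural plate border and crest genes, 2 of 27 fell, tfap2a.L and msx1.L, and 0 rose. Of all genes 0.159% fell and 0.159% rose.

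Among 65 homeobox genes of other kinds, msx1.L fell and 0 rose, and 13 were lower and 0 higher in all 4 pairs (20% lower, against 7.53% of all genes). lhx5.S of the anterior neural plate had 172, 108, 96.3 and 91.2 against 207, 283, 203 and 299 (-1.03 ± 0.20, adjusted p = 0.0701). Its injected and control arrays did not overlap, and the change was smallest in pair 1. dlx2.L, a distal-less gene of ectoderm and crest, was dim, with 0.490 to 8.21 against 14.6 to 33.7 (-0.87 ± 0.17, adjusted p = 0.0669). The median over the 65 was only -0.07. Among 28 Notch pathway genes hes2.L rose and 0 fell, where 0.159% of all genes rose. Hes2 is a repressor of the hairy and enhancer-of-split family, with 140, 174, 98.5 and 72.7 against 50.9, 70.7, 52.1 and 41.0 (1.02 ± 0.17, adjusted p = 0.042). Its relative hes7.1.L had 234, 170, 186 and 304 against 30.9, 108, 94.8 and 24.9, with no overlap, but its changes of 2.43, 0.78, 0.92 and 2.82 were uneven and it did not pass (1.73 ± 0.51, adjusted p = 0.255), and a second, dimmer probe set had 0.83 ± 0.18 (adjusted p = 0.1).

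Cell shape and adhesion genes included a fall and a rise. Of 51 cytoskeleton and motility genes, cnn2.S fell and vim.L rose. Calponin binds actin, and cnn2.S gave 79.6, 18.3, 45.7 and 37.1 against 355, 118, 118 and 264 (-1.86 ± 0.20, adjusted p = 0.00383). Its homeolog cnn2.L did not pass (-0.46 ± 0.28, adjusted p = 0.613) and was slightly higher in pair 2. Vimentin is the intermediate filament of neural and mesenchymal cells, and vim.L gave 194, 292, 257 and 213 against 139, 137, 108 and 96.5 (0.95 ± 0.17, adjusted p = 0.0459). tpm1.L, which encodes a tropomyosin, had 129, 97.4, 126 and 71.4 against 85.6, 9.42, 31.1 and 30.3 (1.32 ± 0.25, adjusted p = 0.0689), and mmp14.L, a membrane-bound matrix protease gene, had 134, 218, 54.7 and 252 against 24.9, 65.1, 32.8 and 134 (1.29 ± 0.27, adjusted p = 0.0931). Neither passed, and for both the injected and control arrays overlapped. None of 107 matrix and protease genes passed (4 higher and 6 lower at an unadjusted p under 0.05), and none of 39 junction genes did (0 higher and 3 lower). Over all 7531 genes 430 were higher and 359 lower at that level. Of 32 guidance genes ephb3.L, an Eph receptor gene, came nearest, at 42.6, 44.9, 57.2 and 53.8 against 242, 114, 85.8 and 115 (-1.16 ± 0.24, adjusted p = 0.0931), and epha2.L lay in the other direction (0.69 ± 0.16, adjusted p = 0.144).

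Another set of passing genes has roles in metabolism and transport. hal.1.L encodes histidine ammonia-lyase, which opens the breakdown of histidine in skin and liver, and had the smallest p of the named genes: 293, 198, 272 and 198 against 1042, 558, 636 and 1001 (-1.69 ± 0.18, adjusted p = 0.00383). The related hal.2.S was dim and did not pass (-0.71 ± 0.16, adjusted p = 0.124). A pair of transporters of large neutral amino acids rose, slc43a2.L at 169, 182, 212 and 173 against 86.5, 52.3, 55.8 and 43.0 (1.5 ± 0.19, adjusted p = 0.00965) and slc7a5.L at 367, 379, 480 and 263 against 165, 127, 297 and 116 (1.13 ± 0.19, adjusted p = 0.0368). The groups did not overlap for slc43a2.L and did for slc7a5.L. They were the 2 that rose of 120 solute carrier genes, of which 0 fell and 118 did not pass. Of all genes 0.159% rose. The list of 40 amino acid genes holds the same 2 rises and the fall of hal.1.L.

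Heme oxygenase, which splits heme, and the precursor of alpha-1-microglobulin, a heme-binding plasma protein, are encoded by hmox1.L and ambp.L. hmox1.L gave 461, 506, 308 and 695 against 67.6, 236, 83.4 and 293 (1.64 ± 0.22, adjusted p = 0.0117), and ambp.L gave 266, 510, 254 and 269 against 68.2, 148, 70.8 and 120 (1.58 ± 0.21, adjusted p = 0.0117). Every injected array lay above every control for both. They were the 2 of 26 heat and oxidative stress genes that passed, where 0.159% of all genes rose. The other 4 probe sets of ambp.L, at 53.6 or below on every array, had changes between -0.31 and 0.19 and did not pass. The purine nucleoside phosphorylase gene pnp.L gave 281, 290, 400 and 602 against 64.2, 51.0, 78.0 and 407 (1.82 ± 0.30, adjusted p = 0.0319), where control 4 stood far above the other controls. sesn1.L, which encodes a stress sensor that p53 controls in mammals, gave 412, 400, 263 and 367 against 123, 196, 163 and 184 (1.07 ± 0.17, adjusted p = 0.0207), with 0.63 ± 0.22 in a second, dim probe set that did not pass. The other 11 measured p53 targets did not pass, and sesn2.L was lower in all 4 pairs (-0.45 ± 0.17, adjusted p = 0.395).

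The last named genes do not share a list. nradd.L, of the p75 neurotrophin receptor family, gave 259, 241, 261 and 406 against 59.0, 99.2, 83.7 and 63.6 (1.77 ± 0.20, adjusted p = 0.00444), the rise with the smallest p among named genes. cpne3.L, of the calcium-dependent lipid-binding copines, gave 162, 193, 207 and 167 against 102, 69.5, 78.0 and 64 (1.15 ± 0.19, adjusted p = 0.032), and its other, brighter probe set did not pass (0.96 ± 0.18, adjusted p = 0.0669). naaa.L, which encodes a lysosomal hydrolase of fatty acid amides, gave 25.8, 38.4, 19.8 and 21.4 against 69.9, 85.7, 47.2 and 44.1 (-0.87 ± 0.14, adjusted p = 0.034). menf.1.L showed the largest fall among named genes that passed, -2.02 ± 0.35 (adjusted p = 0.0424), and every pair was lower, although levels also differed between pairs and the groups overlapped. It had 22.6, 161, 39.0 and 89.3 in injected caps against 212, 618, 114 and 568.

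Homeologs were measured for 8 of the 25 named genes, and none of the 8 passed. They were chosen because their partner had passed. Changes ran in the partner's direction for 7 of 8, and the exception, hmox1.S, was at 13.4 or below on all arrays. In all 4 pairs 5 kept that direction, where 9.16% of all genes were higher and 7.53% lower. Whether these probe sets also read the partner's RNA was not tested. vim.S had 98.7, 63.7, 79.6 and 113 against 32.3, 59.8, 50.5 and 36.9 (0.81 ± 0.39, adjusted p = 0.504), and slc43a2.S had 18.8, 49.1, 22.6 and 11.4 against 2.76, 6.90, 13.0 and 3.73 (0.85 ± 0.20, adjusted p = 0.136).

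None of 38 glycolysis genes passed. At an unadjusted limma p under 0.05, 7 were higher and 1 lower, against 430 and 359 of all 7531 genes. In all 4 pairs 9 were higher (23.7%, against 9.16% of all genes) and 0 lower. The hexokinase gene hk1.L had 304, 217, 435 and 244 against 262, 56.0, 129 and 97.3, with changes of 0.15, 2.14, 1.68 and 1.19 (1.29 ± 0.27, adjusted p = 0.102), and pdk1.S, a kinase that restrains pyruvate oxidation, had 317, 310, 316 and 364 against 140, 185, 186 and 256 (0.77 ± 0.15, adjusted p = 0.0701). For gapdh.L the change was 0.78 ± 0.20 (adjusted p = 0.212). The median over the list was 0.15, and by pair 0.34, 0.13, 0.02 and 0.009, with 34, 26, 20 and 20 of the 38 higher. Without pair 1 it was 0.04, and 1 gene passed, hk1.L. Of 85 genes of respiration and the citrate cycle, 0 passed, with a median of 0.11 and 7 higher and 0 lower at an unadjusted p under 0.05. In all 4 pairs 13 were higher (15.3%, against 9.16% of all genes) and 0 lower. Of 22 hypoxia genes only hmox1.L passed, and egln3.L had 0.96 ± 0.22 (adjusted p = 0.13). The cholesterol synthesis gene dhcr7.S had 81.8, 127, 76.4 and 135 against 49.9, 20.8, 31.3 and 30.4 (1.35 ± 0.28, adjusted p = 0.0931) in a list of 20 sterol and lipid genes of which 0 passed.

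None of 139 cell cycle, 120 splicing, 96 chaperone, 95 chromatin, 64 translation factor or 187 ubiquitin and proteasome genes passed, and their medians lay between -0.03 and 0.05. Cyclin D1 (ccnd1.L) had 438, 652, 575 and 735 against 428, 321, 299 and 460 (0.66 ± 0.18, adjusted p = 0.227), with a change of 0.01 in pair 1. Cyclin B1 family member ccnb1.2.L had 1040, 905, 707 and 977 against 1262, 1350, 1043 and 1581 (-0.54 ± 0.15, adjusted p = 0.235). The signs of the cell cycle, splicing and chromatin medians turned when arrays were centred on their medians instead of quantile normalised (0.002, 0.02 and 0.03), as did those of the junction and Notch lists (0.03 and 0.01), so no direction is given for them.

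**Figure D3:**
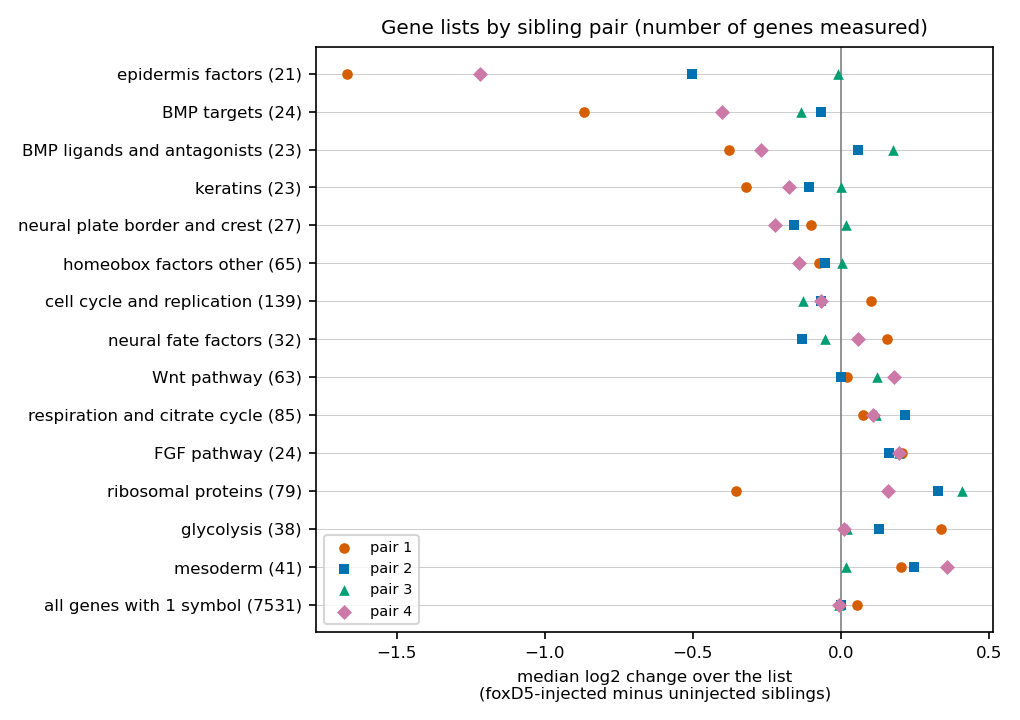
Median log2 change of 14 gene lists and of all 7531 genes in each sibling pair, foxD5-injected minus uninjected siblings. Ectodermal factors spread from -1.67 in pair 1 to -0.01 in pair 3, the FGF list stays between 0.16 and 0.20, and ribosomal proteins lie below 0 in pair 1 and above 0 in pairs 2 to 4.

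Pair 1 stood apart in cap number and in how its changes ran against those of the other pairs. Its injected sample pooled 171 caps and its control 45, against 135 and 169, 118 and 124, and 142 and 142 in pairs 2 to 4. The injected caps of pairs 1 and 4 were harvested from stage 11.5 on (to 13.0 and 12.5), and those of pairs 2 and 3 from 12.5 to 13.0. Its log2 changes had an SD of 0.585 over all probe sets, against 0.537, 0.431 and 0.412. Over all probe sets they correlated with those of pairs 2, 3 and 4 at -0.02, -0.16 and 0.15 (Pearson), whereas pairs 2, 3 and 4 correlated with each other at 0.17 to 0.24. These are descriptions over 15491 probe sets that share arrays within a pair, not tests. The injected array 1 was closer to control 3 (0.973) than to its own sibling (0.947), and control 1 was closest to control 4 (0.967). By single arrays pair 2 lay farther out. Its injected array and its control were each closest to the other, at only 0.956. The lowest correlation with any of the 8 arrays was 0.934 for control 1 and also for control 2.

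The genes that set pair 1 apart were led by larval keratins, whose highest array was control 1. These genes were picked for their gap in pair 1, so an outlying array there is part of how they were chosen. krt12.4.L had 30.9, 89.0, 51.5 and 66.6 in injected caps against 1832, 81.9, 24.9 and 338, and krt70.L had 20.1, 78.9, 52.2 and 76.6 against 1552, 101, 56.3 and 539. Control 4 was second, and controls 2 and 3 were near the injected caps. krt12.5.S (98.9, 255, 581 and 535 against 2363, 259, 308 and 1207) and krt12.4.S (51.9, 48.8, 154 and 81.3 against 1427, 57.4, 61.2 and 286) also had control 1 highest and control 4 second. So did dlx3.L, a distal-less factor of epidermis, at 44.0, 77.4, 52.8 and 53.3 against 783, 78.4, 50.2 and 324, and slc38a2.L, an amino acid transporter gene, at 46.9, 67.5, 44.7 and 47.7 against 563, 41.4, 20.3 and 151. A probe set of otogl2.L gave 50.3, 25.8, 84.8 and 37.4 against 585, 4.97, 27.1 and 79.8, whereas its brightest probe set was level, at 1661, 1616, 1671 and 1687 against 1661, 1589, 1527 and 1428.

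None of the 23 keratin genes passed (0 higher and 5 lower at an unadjusted p under 0.05), and their median was -0.22. Their summed signal was 7635, 7041, 8946 and 9504 in injected caps against 19511, 6966, 7961 and 12937 in controls, so it was higher in controls 1 and 4 and about level in pairs 2 and 3. krt70.S, the brightest, hardly shared in this (4852, 4376, 5590 and 6232 against 6876, 4112, 5223 and 6676). The summed signal of the 21 ectodermal factors was likewise highest in controls 1 and 4, with 3143, 3782, 4294 and 4026 against 10303, 5519, 5141 and 9117. Here each control exceeded every injected array. Control 1 pooled the fewest caps (45) and control 4 142, and the part of cap number or stage in this was not tested.

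Other genes were low in control 1 and high in its sibling. The brightest probe set of hebp2.S, of the heme-binding proteins, had 852, 519, 279 and 488 against 89.1, 465, 426 and 530. The 4 others of this gene disagreed among themselves in pair 1, with changes of -1.12, -1.94, 0.65 and 0.10. Likewise ccnb1.S, a mitotic cyclin, had 1109, 815, 641 and 341 against 223, 1275, 1501 and 413. Changes of 2.23, 1.87 and 1.89 were found in pair 1 for wls.S, which encodes a carrier of Wnt proteins, for clic1.S, a chloride channel gene, and for the reductase gene cbr4.L, each at 0.29 or less in pairs 2 to 4. prss16.S, pigv.S and kctd14.S had 2.23, 1.86 and 1.73 in pair 1 and values below 0 in the other pairs, except that a second probe set of prss16.S was at 1.35 and 0.28 in pairs 2 and 3. Maternal and germ plasm genes had a median of 0.52 in pair 1, against -0.007, -0.21 and 0.05 in pairs 2 to 4. Only vegt.L passed among the 27.

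Ribosomal protein genes also differed between pair 1 and the rest. Of 79, 64 were lower in pair 1 (median -0.35), while 69, 71 and 61 were higher in pairs 2, 3 and 4 (medians 0.33, 0.41 and 0.16). None passed over all pairs (1 higher and 0 lower at an unadjusted p under 0.05), and 4 were higher in all 4 (5.06%, against 9.16% of all genes). Among the 4 with the smallest p, rpl23.S had 455, 710, 1036 and 1071 against 796, 292, 497 and 667. Among the array's control probe sets, which read both ends of a transcript, the Gapd 3'/5' signal ratio was 2.29, 2.95, 3.43 and 3.01 in injected caps against 2.60, 2.17, 2.60 and 2.52, so it too was lower in the injected array of pair 1 and higher in that of pairs 2 to 4. The bAct ratio was 0.965, 1.51, 1.15 and 1.35 in injected caps against 1.19, 1.55, 1.44 and 1.60, lower in the injected array of every pair. The part of RNA quality in the ribosomal values was not tested. The immediate early gene egr1.L split in the same manner, with 563, 1053, 253 and 582 against 785, 104, 114 and 26.1 and changes of -0.47, 3.49, 1.11 and 3.63 (1.94 ± 0.59, adjusted p = 0.271). Control 1 alone among the controls was at the level of the injected caps.

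**Figure D4:**
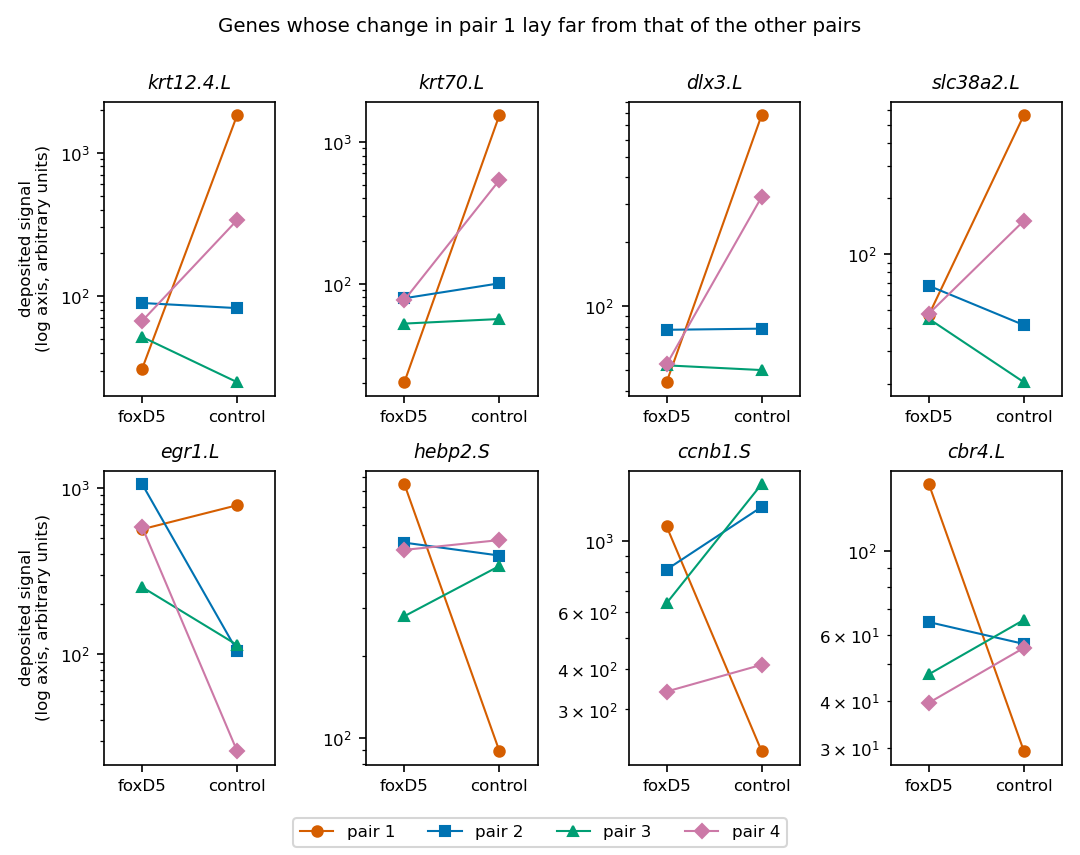
Deposited signal (log axis) of 8 genes whose change in pair 1 was far from that in the other pairs, with the foxD5-injected (left) and uninjected (right) array of each pair joined. Control 1 (orange circle, right) is the highest control for the first 5 genes and the lowest for hebp2.S, ccnb1.S and cbr4.L.

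Leaving pair 1 out gave 26 probe sets, 15 higher and 11 lower, with 2210 at an unadjusted p under 0.05. Only 13 of the 26 were among the 37. Of the other 13, 7 were higher and 6 lower, and 7 carry 1 symbol. These 7, named after their values were seen, were hk1.L (1.67 ± 0.23, adjusted p = 0.0262 without pair 1), tpm1.L (1.61 ± 0.24, adjusted p = 0.0388), phb2.S, which encodes a prohibitin of the mitochondrial membrane (1.02 ± 0.16, adjusted p = 0.0478), neo1.L, the receptor neogenin (-1.32 ± 0.20, adjusted p = 0.034), lhx5.S (-1.26 ± 0.18, adjusted p = 0.0318), pcmtd2.L (-1.04 ± 0.14, adjusted p = 0.0238) and irx1.L (-0.96 ± 0.15, adjusted p = 0.0497). Pair 1 had changes of 0.15, 0.45, -0.35, -0.20, -0.32, 0.46 and -0.39 for these genes in the same order, each smaller than or opposite to those of the other pairs. They passed only once pair 1 was left out, so a weak or opposite change there is part of how they were chosen. All 37 kept their sign without pair 1. Of the 26 passing probe sets with 1 symbol, 10 still passed, those of hal.1.L, cnn2.S, nradd.L, bmp7.2.L, slc43a2.L, fgfr4.S, hmox1.L, grhl3.L, cpne3.L and vim.L. The 16 that no longer passed included foxi1.L, msx1.L and tfap2a.L of the ectodermal and BMP lists and the rises of fgf8.L, vegt.L and foxb1.S.

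The other pairs had particulars of their own. In pair 2, nckap5l.S and aplp2.S were lower by 1.88 and 1.44 on the log2 scale, with changes between -0.21 and 0.83 elsewhere, and aldh1l1.L, a folate enzyme gene, was higher by 2.33, with 94.6, 95.4, 119 and 153 in injected caps against 368, 9.60, 93.8 and 283. fibcd1.S was at -1.24 in pair 2 and at 0.76, -0.36 and 0.72 in pairs 1, 3 and 4. In pair 3, rcan1.S, a calcineurin regulator gene, was at 128 in injected caps against 299 in siblings, while the other pairs had 369, 365 and 339 against 220, 246 and 309. In pair 4, xmc.L was at 148 against 22.9, with 45.0, 110 and 51.3 against 43.8, 63.3 and 41.3 in pairs 1 to 3. None of these genes passed. The share of all probe sets over 2-fold was 7.09%, 6.87%, 2.54% and 2.27% in pairs 1 to 4.

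In Noggin the foxD5 effect was measured on the other 8 arrays. The effects share no array, although they share the estimate of the spread. All 37 probe sets had the same sign there, and 16 passed there as well. The share of all probe sets that passed or kept their sign in Noggin is not given here, so these counts have no background. The spread that helped to choose the 37 also entered the test in Noggin. The difference of the effects, without Noggin minus in Noggin, was tested directly and 0 of 15491 probe sets passed (0%), with 765 at an unadjusted p under 0.05 by limma. Among the 37, 6 had an unadjusted limma p under 0.05 for the difference, where 765 of all 15491 probe sets did. The smallest adjusted p among the 37 was 0.926. The 37 were chosen for their change without Noggin, which favours a smaller change in Noggin. Such differences among the 37 are thus partly a product of that choice. The named ones of the 6 were slc7a5.L, with 1.13 ± 0.19 without Noggin and 0.12 ± 0.19 in Noggin, and naaa.L, with -0.87 ± 0.14 and -0.15 ± 0.14. The others named were cnn2.S, with -1.86 ± 0.20 and -1.02 ± 0.20, and hes2.L, with 1.02 ± 0.17 and 0.41 ± 0.17. None of these differences passed, and so none is shown to belong to caps without Noggin.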

How the data were processed

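Pooled animal caps were measured on 16 single-colour Affymetrix Xenopus arrays, 8 of them without Noggin. The values deposited by the authors are intensity, 1 linear signal per probe set. Once 2% of the values were cut at either end, each array averaged about 150.02, which puts the arrays on a common scale. The software behind them is not given in the sources used here, nor are detection calls. The deposited intensity was turned into log2(signal + 16). Array medians then ran from 5.79 to 6.35, wider than the 0.2 allowed, and arrays were quantile normalised. The 120 Affymetrix control probe sets were left out and no filter was set on low signal. The number of arrays, not a read depth, limits the precision.

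By the platform annotation 9304 probe sets have 1 symbol, 195 have several and 5992 have none. Of the first, 9227 were found in RefSeq by Entrez identifier, which renamed 2. Lists count 1 probe set per gene, the one with the highest mean, over 7531 genes. Deposited signals are printed as such, and changes are on the normalised scale.

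The fit used R 4.3.3 and limma 3.58.1, with all 16 arrays, a term for each sibling pair, and Benjamini-Hochberg adjustment over 15491 probe sets. Tests were two-sided. Each control's description names the injected sample it is a sibling of, and the injected sample without a number was taken as number 1. As a check, the correlation of siblings' deviations from their group means was -0.115, 0.385, 0.203 and 0.419 in pairs 1 to 4. It was negative for pair 1, whose injected sample was numbered by assumption, so it does not bear out that pairing. The script was tested on simulated data. Members and gene lists (49) were chosen with earlier results of these data known, so the lists are no independent evidence.

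Named genes were all passing probe sets with 1 symbol, the injected gene, the 4 members of a described list with the smallest p, and, among probe sets above the median level, those whose change in pair 1 lay farthest from the median of the other pairs (8 each way), with 3 each way for pairs 2, 3 and 4. Genes over 2-fold in all pairs that did not pass were to be named too, but the 1 such probe set has no symbol. Other genes are said to be named after their values were seen. Alternatives were no pairing or a random block, unnormalised values or centring on array medians, a constant of 1 or 64, probe sets above the median alone, an intensity trend, array weights, the 8 arrays alone, and leaving out each pair. Leaving out pairs 1 and 4 together was added after the data were seen.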

Additional observations from a re-analysis of the deposited data

Results flagged for a closer look

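A sample was singled out where, among the 4 arrays of a group, its gap to the nearest array took up more of the whole range than Dixon's 95% critical value allows. This was checked for 104 groups of named probe sets, 8 of which exceeded it, and chance exceeds it in about 1 group in 20. Over all probe sets 5.94% of the injected and 6.48% of the uninjected groups exceeded it. The array singled out there was most often that of replicate 2, in 369 injected and 420 uninjected groups, against 203 and 261 for replicate 1. Among genes that passed, nradd.L was at 405.7 in injected caps 4 (240.5 to 261.1 in injected caps 1 to 3), ambp.L at 510.0 in injected caps 2 (254.0 to 269.2 in the others) and foxi4.2.L at 541.1 in control 3 (841.5 to 1049 in the others). Among genes that did not pass, cbr4.L was at 150.2 in injected caps 1 (39.6 to 64.7), rcan1.S at 127.7 in injected caps 3 (338.8 to 369.2) and otogl2.L at 135.8 in injected caps 3 (27.1 to 45.7), in another of its 4 probe sets than the 2 whose values are given above. The gene hebp2.S was at 89.1 in control 1 (426.3 to 530.4) and xmc.L at 22.9 in control 4 (41.3 to 63.3). These genes, other than the 3 that passed, were named because 1 pair differed from the rest, so such flags are part of how they were chosen.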

How the results depend on the processing

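The count of 37 probe sets without Noggin was 33 with values as deposited, 37 with median centring, 49 with a random replicate block, 52 with a constant of 64, 50 among the 7745 probe sets above the median level and 49 with array weights. It moved further in other fits: 92 with an intensity trend, 1 without the replicate block that makes the analysis paired, 0 with a constant of 1 (1414 at an unadjusted p under 0.05), 0 with the 8 arrays alone and 0 without pairs 1 and 4 (2181 at an unadjusted p under 0.05). These fits did not all call the same probe sets. Of the 37, 33 passed with values as deposited, 34 with median centring and 28 with a random replicate block. With a constant of 64, 32 of the 37 passed, with array weights 31, and with an intensity trend all 37. Of the 37, 30 were tested above the median level and all 30 passed. Leaving out 1 pair gave 7 to 29 probe sets. The count was 16 without pair 2 and 7 without pair 4, and a fit with fewer pairs has fewer residual degrees of freedom. Of the 26 passing probe sets with 1 symbol, 16, 15, 8 and 20 no longer passed without pair 1, 2, 3 and 4. Of the 37, hal.1.L, cnn2.S, nradd.L, hmox1.L and 1 unnamed probe set passed without each pair in turn. The calls of msx1.L, naaa.L, slc7a5.L, hes2.L and menf.1.L were lost whichever pair was left out. With a random replicate block 7 of the 26 were lost, those of cnn2.S, klf17.L (both probe sets), pnp.L, slc7a5.L, hes2.L and menf.1.L. Array weights lost pnp.L, hes2.L and menf.1.L. Values as deposited lost menf.1.L and msx1.L, and a constant of 64 lost foxb1.S and msx1.L. None of the 37 turned sign in these alternatives, where they were tested. As all 37 had 1 direction in all 4 pairs, leaving out pairs or changing the pairing could not turn their sign. The 0 for the difference between cultures was 0 in each alternative in which it was fitted. Dim probe sets, 26.5% with a mean under 16, limit what can be read from low genes.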
